A study of Mus musculus with 12 samples.

Results

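The genes described here are 10 genes by which astrocytes and Bergmann glia are commonly recognised: Gfap, Aqp4, Aldh1l1, Slc1a2, Slc1a3, Gja1, Gjb6, Glul, Gdf10 and Hopx. Every non-control probe that the array annotation assigns to one of these symbols was taken, which gave 22 of the 41174 distinct probes and 10 of the 21186 gene names on the array. RNA from whole cerebellum and whole hippocampus of En2-/- mice and wild type (WT) mice was hybridised to 12 one-colour arrays, 3 for each tissue and genotype. The En2 mutation is the En2tm1Alj allele, made on a mixed 129Sv x C57BL/6 and outbred background and then backcrossed to C57BL/6 for 5 generations or more. Both genotypes were littermates from matings of heterozygotes, of both sexes and 3 to 5 months old, and carried no other stated allele or treatment. The methods describe 3 mice per genotype for the hippocampi and cerebella together. The labels do not say which arrays of the 2 tissues come from the same mouse, so the tissues are not independent evidence. The mutation is constitutive, and the tissue was not sorted, so fewer cells of a type and less RNA per cell cannot be told apart in any comparison below. The comparisons ask how the RNA of the 10 genes differed between cerebellum and hippocampus, and how it differed between En2-/- and WT in each tissue.

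Astrocytes clear glutamate and potassium from the space around synapses, move water at their endfeet on blood vessels, and are joined to each other by gap junctions. Glutamate that they take up through their transporters is turned into glutamine and handed back to neurons. Bergmann glia are the specialised astrocytes of the cerebellar cortex, whose radial fibres surround the synapses on Purkinje cell dendrites, and they rely more on the transporter GLAST (Slc1a3), whereas forebrain astrocytes rely more on GLT-1 (Slc1a2).

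The 2 probe sequences below are shown because the genotype comparison turned on them: they are the Slc1a2 probes that separate one splice variant from the rest of the gene. The Slc1a2 probes lie on the plus strand of chromosome 2, at chr2:102617706-102617765 and chr2:102617801-102617860 (mm9), with 35 bases between them. The first, annotated to RefSeq NM_001077514, lies in coding sequence upstream of the point where the variants part, and is called the shared probe below. The second is annotated to transcript variant 3 (RefSeq NM_011393), which encodes the alternative C terminus known as GLT-1b. The capitals mark the stop codon of that C terminus, at bases 49 to 51 of the probe, in the reading frame carried on from the shared probe, and 9 bases follow it.
Slc1a2 shared probe A_52_P168496: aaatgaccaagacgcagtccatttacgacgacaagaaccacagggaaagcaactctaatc
Slc1a2 variant 3 probe A_51_P477875: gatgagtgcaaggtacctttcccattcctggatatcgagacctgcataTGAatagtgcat

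Levels are log2 intensities after quantile normalization over the 12 arrays, so a difference of 1 is a doubling, and they are given as mean ± SD over 3 arrays. Between 62.1% and 72.9% of the 43379 non-control spots of an array were well above background, and the median signal of a spot was 5.72 to 10.4 times its local background. Of the 22 probes, 21 were well above background on all 12 arrays and were tested. The remaining one, Slc1a3 probe A_51_P333324, was well above background on 3 of 12 arrays and has no test. The arrays lie on 3 slides, each of which holds 1 array of every group in the same order, so position on the slide and group cannot be told apart. Tissue labels held: all 7 granule cell markers and all 7 Purkinje cell markers were higher in the cerebellum, and all 7 hippocampal neuron markers were lower there, in both genotypes (limma). The En2 probe lies outside the deleted part of the gene and checks nothing about genotype: its level was 14.15 ± 0.41 in WT and 14.46 ± 0.37 in En2-/- cerebellum.

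**Figure D1:**
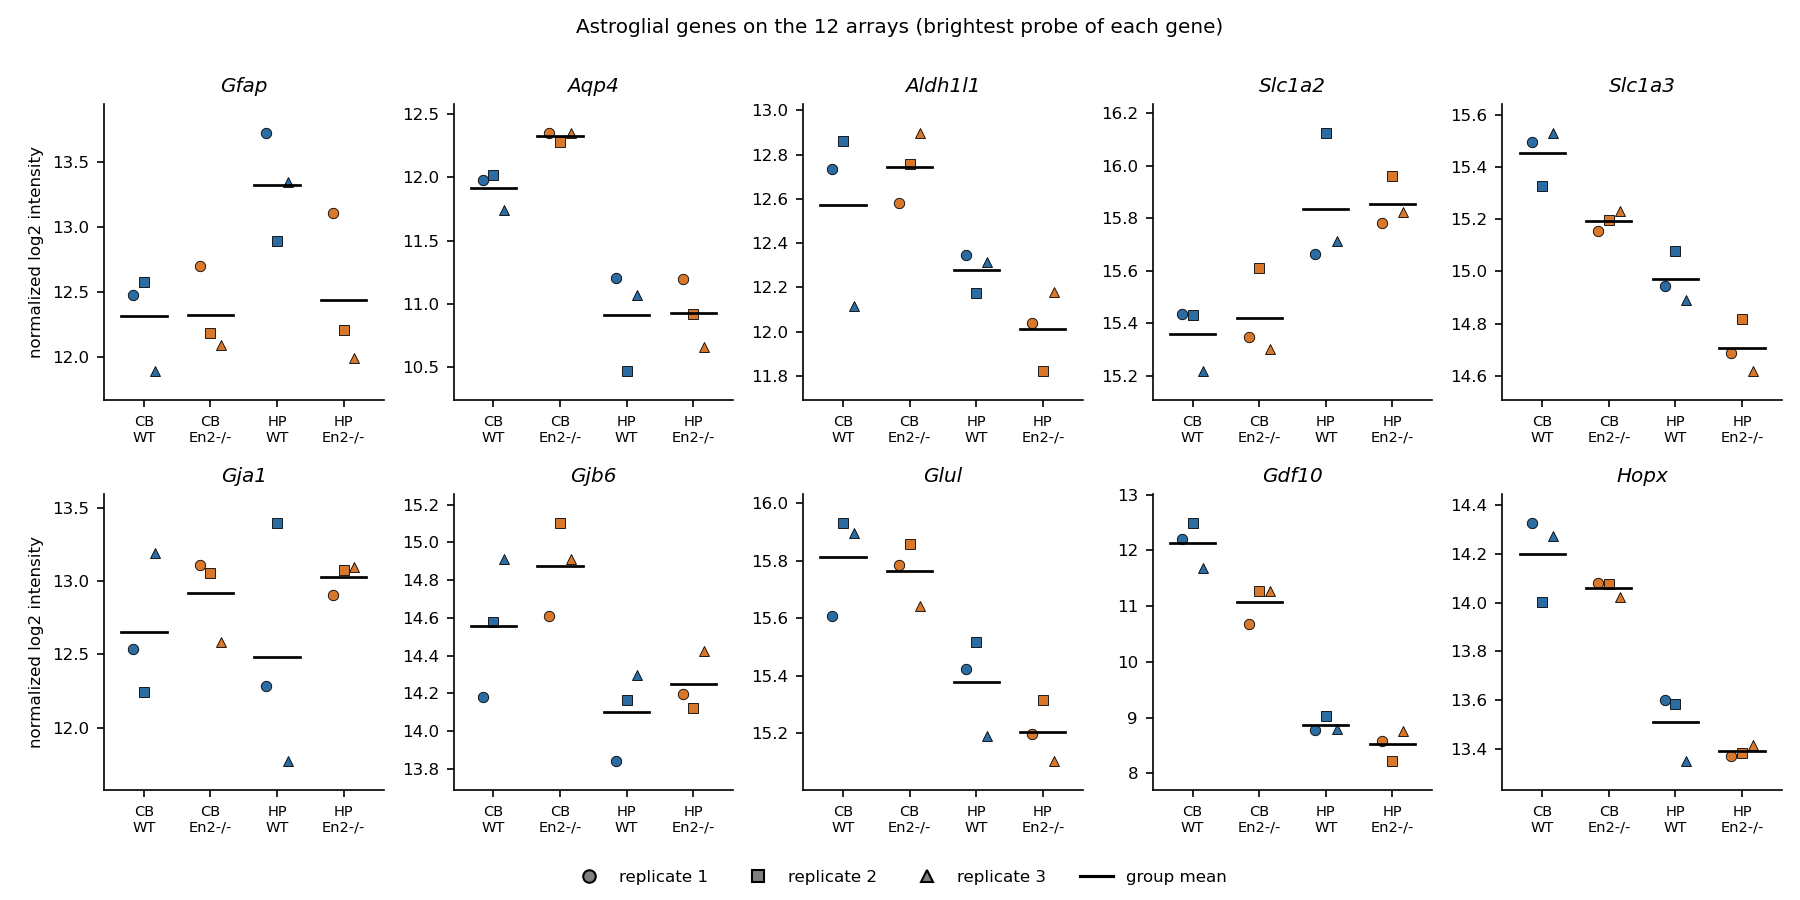
Normalized log2 intensity (vertical axis) of the brightest probe of each of the 10 genes on the 12 arrays, by tissue (CB, cerebellum; HP, hippocampus) and genotype. Each symbol is 1 array, with its shape giving the replicate number, and bars are group means. Gdf10 ran from 11.69 to 12.50 in WT cerebellum and from 8.78 to 9.02 in WT hippocampus, and each panel has its own vertical scale.

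In WT mice the 10 genes did not share one direction between the tissues. By limma (Benjamini-Hochberg adjusted p below 0.05 over all 27389 probes tested), 9 of the 21 probes differed, 6 of them higher and 3 lower in the cerebellum. These probes belong to 6 genes: Gdf10, Aqp4, Hopx and Slc1a3 were higher in the cerebellum, while Gfap and Slc1a2 were lower there. Over all probes, 14.5% were higher and 13.5% lower in WT cerebellum. The median difference of the 21 probes was 0.43, against 0.04 for all probes.

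In En2-/- mice 8 of the 21 probes differed between the tissues, and all 8 were higher in the cerebellum, against 12.7% of all 27070 probes higher and 11.8% lower. They belong to Gdf10, Aqp4, Hopx, Slc1a3, Aldh1l1 and Glul. No Gfap or Slc1a2 probe passed in En2-/- mice. The median difference of the 21 probes was 0.18, against 0.01 for all probes. Whether a probe's region difference itself depended on genotype was tested separately and is given at the end, with no probe of the 10 genes passing. Over the marker lists of other cells, microglial genes were lower in cerebellum for 8 of 8 genes in WT and 5 of 8 in En2-/-. Their mean level over 8 genes was 8.94 to 9.04 in WT cerebellum against 10.42 to 10.54 in WT hippocampus, and the part of such differences in the values below was not tested.

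**Figure D2:**
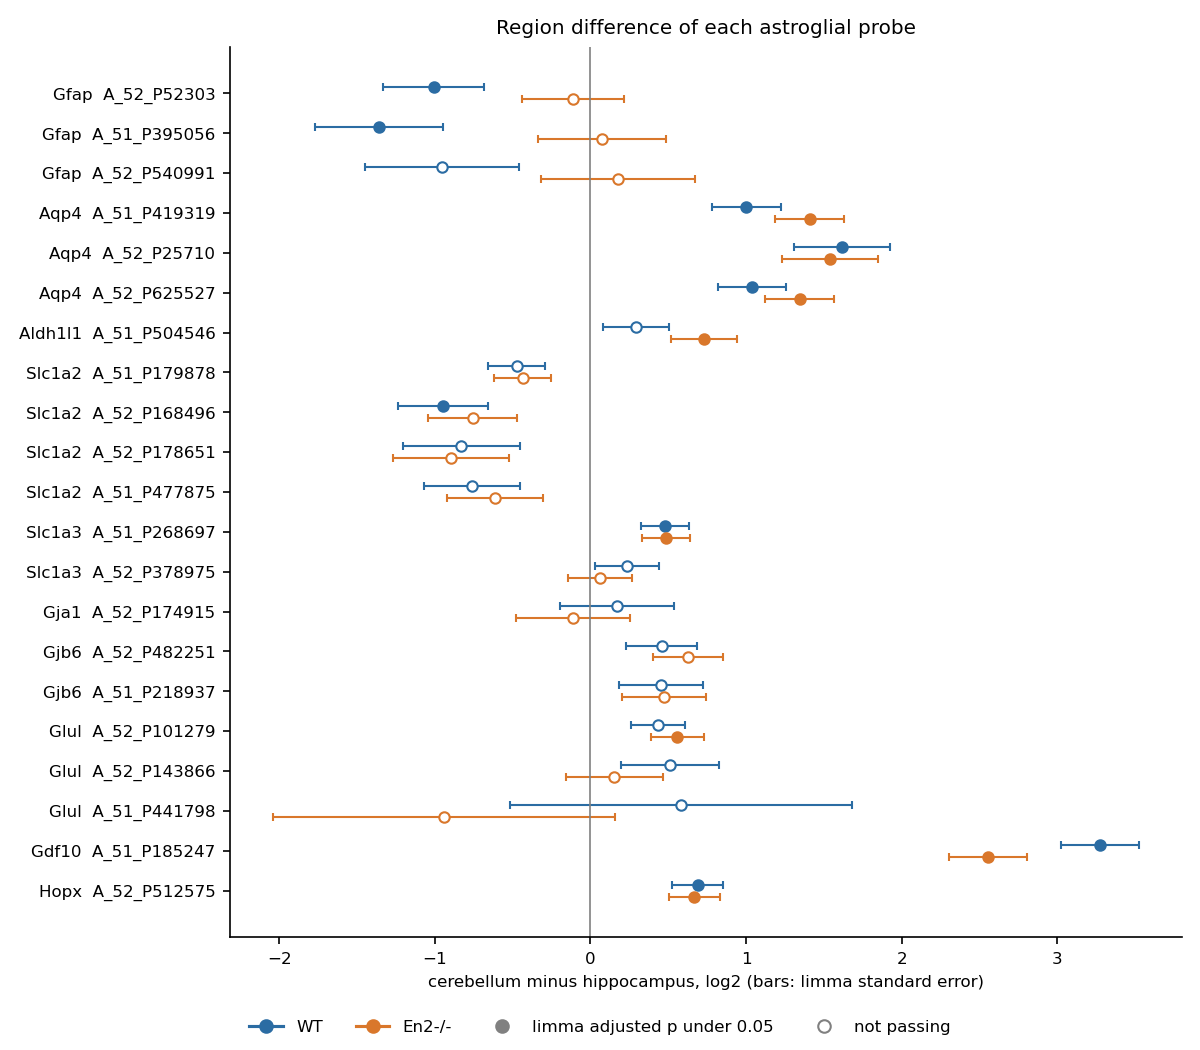
Cerebellum minus hippocampus (horizontal axis, log2) for the 21 tested probes of the 10 genes in WT and En2-/- mice. Points are fitted differences, bars their limma standard error, and filled points have a limma adjusted p under 0.05. Gdf10 lies farthest to the right, at 3.27 in WT and 2.55 in En2-/-, and the 3 Gfap probes lie between -1.36 and -0.95 in WT and between -0.11 and 0.18 in En2-/-.

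Gdf10, a secreted ligand of the bone morphogenetic protein family that is made by Bergmann glia, differed most between the tissues. Its single probe lies at chr14:34748161-34748220 (mm9, plus strand). It read 12.21, 12.50 and 11.69 in WT cerebellum, 10.68, 11.27 and 11.26 in En2-/- cerebellum, 8.78, 9.02 and 8.79 in WT hippocampus, and 8.57, 8.22 and 8.77 in En2-/- hippocampus. The groups of the 2 tissues did not overlap in either genotype. The difference was 3.27 (SE 0.25, 9.67-fold, limma adjusted p = 1.87e-06) in WT and 2.55 (SE 0.25, 5.87-fold, limma adjusted p = 1.70e-05) in En2-/- mice. It passed under every alternative setting and with any array left out.

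Hopx, a homeodomain protein without DNA binding that marks Bergmann glia and adult neural stem cells of the dentate gyrus, was also higher in the cerebellum. Its probe (chr5:77516460-77516519, mm9, minus strand) read 14.33, 14.00 and 14.27 in WT cerebellum against 13.60, 13.58 and 13.35 in WT hippocampus. The En2-/- arrays read 14.08, 14.08 and 14.02 against 13.37, 13.38 and 13.42. The 4 groups therefore fell into 2 levels set by tissue, with a spread of at most 0.17 (SD) within a group. The difference was 0.69 (SE 0.16, limma adjusted p = 0.00735) in WT and 0.67 (SE 0.16, limma adjusted p = 0.00990) in En2-/- mice. With each array scaled to its 75th percentile the latter was 0.45 (limma adjusted p = 0.0918).

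Aqp4, the water channel of astrocytic endfeet, was higher in the cerebellum by all 3 of its probes in both genotypes. Its brightest probe, A_51_P419319, read 11.98, 12.02 and 11.74 in WT and 12.36, 12.28 and 12.35 in En2-/- cerebellum. The same probe read 11.20, 10.46 and 11.07 in WT and 11.20, 10.91 and 10.65 in En2-/- hippocampus, below every cerebellar array. Over the 3 probes the difference ran from 1.00 to 1.62 in WT, with limma adjusted p from 0.00198 to 0.00513. It ran in En2-/- mice from 1.34 to 1.54, with limma adjusted p from 0.000619 to 0.00313. These calls held under every alternative setting and with any array left out.

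Slc1a3, the transporter GLAST, was higher in the cerebellum by its brightest probe, A_51_P268697 (chr15:8584236-8584295, mm9, minus strand). It read 15.50, 15.33 and 15.53 in WT cerebellum and 14.94, 15.08 and 14.89 in WT hippocampus. In En2-/- mice the values were 15.16, 15.20 and 15.23 against 14.69, 14.82 and 14.62. No cerebellar array lay as low as any hippocampal array. The difference was 0.48 (SE 0.15, limma adjusted p = 0.0362) in WT and 0.49 (SE 0.15, limma adjusted p = 0.0378) in En2-/- mice. Both calls lie close to the threshold: leaving out any 1 of the 6 arrays moved the adjusted p to between 0.0502 and 0.0924 in WT and between 0.0632 and 0.133 in En2-/-, and a replicate block gave 0.0511 and 0.0535. A dimmer probe of another annotated transcript, A_52_P378975, differed by 0.24 in WT and 0.06 in En2-/- mice and did not pass (limma adjusted p = 0.421 and 0.867).

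Slc1a2, the transporter GLT-1, had the opposite sign to Slc1a3. All 4 of its probes had lower means in the cerebellum in both genotypes, with differences from -0.95 to -0.47 in WT and from -0.90 to -0.44 in En2-/- mice. Of these, the shared probe alone passed, in WT: it read 11.23, 11.32 and 10.58 in cerebellum against 12.22, 11.53 and 12.22 in hippocampus. That difference was -0.95 (SE 0.29, limma adjusted p = 0.0290). Without cerebellar replicate 3, hippocampal replicate 1 or hippocampal replicate 3 its adjusted p became 0.0959, 0.103 and 0.0869. In En2-/- mice the shared probe differed by -0.76 (SE 0.29, limma adjusted p = 0.0776). The brightest Slc1a2 probe, A_51_P179878, read 15.43, 15.43 and 15.22 in WT cerebellum and 15.66, 16.13 and 15.71 in WT hippocampus, and its difference of -0.47 had a limma adjusted p of 0.0738.

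Glul encodes glutamine synthetase, which converts the glutamate taken up by GLAST and GLT-1 into glutamine. Its brightest probe, A_52_P101279 (chr1:155756750-155756809, mm9, plus strand), read 15.61, 15.93 and 15.90 in WT cerebellum and 15.42, 15.52 and 15.19 in WT hippocampus. In En2-/- mice the values were 15.79, 15.86 and 15.64 against 15.20, 15.32 and 15.10. The tissues did not overlap in either genotype. The difference passed in En2-/- mice (0.56, SE 0.17, limma adjusted p = 0.0334) and not in WT mice (0.43, SE 0.17, limma adjusted p = 0.0802), and the 2 differences were not shown to differ (0.12, SE 0.24). The call in En2-/- mice was lost when any 1 of the 6 arrays was left out (limma adjusted p from 0.0586 to 0.119) and with 75th percentile scaling (0.26, limma adjusted p = 0.332). The other Glul probes did not pass in either genotype.

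Gap junction genes gave no call between the tissues. Gja1, the main connexin of astrocytes, varied widely within groups: its probe read 12.54, 12.24 and 13.19 in WT cerebellum and 12.29, 13.40 and 11.77 in WT hippocampus. The difference was 0.17 (SE 0.37) in WT and -0.11 (SE 0.37) in En2-/- mice. Gjb6, the other astrocytic connexin, had higher means in the cerebellum by both probes, by 0.46 and 0.46 in WT and by 0.47 and 0.63 in En2-/- mice. None passed in limma, with adjusted p from 0.0629 to 0.234. The lowest of these, for probe A_52_P482251 in En2-/- mice, became 0.0324 with a replicate block.

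Aldh1l1, a folate enzyme present in astrocytes throughout the brain, was higher in the cerebellum in En2-/- mice, where it read 12.58, 12.76 and 12.90 against 12.04, 11.82 and 12.18. That difference was 0.73 (SE 0.21, limma adjusted p = 0.0262). In WT mice it read 12.74, 12.86 and 12.11 against 12.35, 12.18 and 12.31, so the tissues overlapped, and the difference was 0.29 (SE 0.21, limma adjusted p = 0.337). The call in En2-/- mice was lost without cerebellar replicate 2 or 3 (limma adjusted p = 0.0574 and 0.101), without hippocampal replicate 1 or 2 (0.0542 and 0.0987) and with 75th percentile scaling (0.0548).

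Gfap, the intermediate filament protein of astrocytes and the gene most used to mark reactive ones, was lower in WT cerebellum than in WT hippocampus. Its brightest probe, A_52_P52303 (chr11:102751813-102751872, mm9, minus strand), read 12.47, 12.58 and 11.89 in cerebellum and 13.73, 12.89 and 13.35 in hippocampus. The difference was -1.01 (SE 0.33, limma adjusted p = 0.0379). Probe A_51_P395056, read on 10 spots per array, read 9.56, 9.19 and 7.99 against 10.84, 10.15 and 9.82, a difference of -1.36 (SE 0.41, limma adjusted p = 0.0283). For probe A_52_P540991 the difference was -0.95 (SE 0.49, limma adjusted p = 0.173). The 3 differences in En2-/- mice were -0.11, 0.07 and 0.18, with limma adjusted p from 0.834 to 0.921. The WT calls were fragile. That of A_52_P52303 was lost with any array left out but WT hippocampal replicate 2 (limma adjusted p from 0.0502 to 0.144), and with 75th percentile scaling (0.0502). That of A_51_P395056 was lost without WT cerebellar replicate 3 (0.0928), WT hippocampal replicate 1 (0.118) or replicate 2 (0.0579). Both were lost with no filter on dim probes (0.0649 and 0.0556). Both held with a replicate block, with limma adjusted p of 0.0119 and 0.00298. They also held with the normexp background (0.0244 and 0.0232) and with probes above background on all arrays compared (0.0358 and 0.0263).

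Other astroglial genes, taken from lists of transporters and ion channels, metabolic and secreted factors, Bergmann glial genes, radial glial genes and transcription factors, and reactive astrocyte genes, also went both ways. A gene was counted where any of its probes passed, so gene counts do not compare with shares of probes. Over all probes, 14.5% were higher and 13.5% lower in WT cerebellum, and 12.7% and 11.8% in En2-/- cerebellum. Among 19 transport and ion homeostasis genes, 9 were higher and 1 lower in WT cerebellum, and 11 were higher and 0 lower in En2-/- cerebellum (limma). Of their 31 probes, 11 were higher and 3 lower in WT, and 14 higher and 0 lower in En2-/- cerebellum. Slc6a9, a glycine transporter, was higher by 2.05 in WT and 1.94 in En2-/- mice, and the GABA transporter Slc6a11 by 2.10 and 2.16. Kcnj16, a potassium channel subunit, was higher by 1.33 in WT mice, and the bicarbonate transporter Slc4a4 by 2.06 and the sodium pump subunit Atp1b2 by 1.75 in En2-/- mice. The gene lower in WT cerebellum was the cystine transporter Slc7a11, which was not well above background there and was at least 2.83-fold higher in WT hippocampus.

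Among 12 Bergmann glial genes, 7 were higher and 1 lower in the cerebellum in each genotype (limma). They included Itih3, higher by 2.89 in WT and 2.68 in En2-/- mice, A2m, higher by 2.42 and 3.01, and Gria4, a glutamate receptor subunit, higher by 3.49 in both genotypes. Gria4 was well above background on 1 of 3 hippocampal arrays of each genotype. Ptch1, the receptor of sonic hedgehog, was higher by 2.29 in WT mice, where 2 of 3 hippocampal arrays were well above background. It was not well above background on any En2-/- hippocampal array and was at least 4.24-fold higher in En2-/- cerebellum. The median difference of the 22 tested probes of this list was 1.43 in WT and 1.33 in En2-/- mice, against 0.04 and 0.01 over all probes. Of these 22 probes, 12 were higher and 2 lower in WT, and 12 higher and 1 lower in En2-/- cerebellum (limma).

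Metabolic and secreted factors were divided, with 7 of 29 genes higher and 10 lower in WT cerebellum, and 7 higher and 7 lower in En2-/- cerebellum (limma). By probe, 10 of 43 were higher and 11 lower in WT, and 9 higher and 8 lower in En2-/- cerebellum. The matrix protein gene Sparc was higher by 2.17 in WT and 1.81 in En2-/- mice by probe A_51_P431087, and by 1.93 and 2.62 by probe A_52_P101852, while Thbs4, a thrombospondin, was lower, with differences of -5.73 and -5.37, as was the glypican Gpc4, with -3.48 in both genotypes. Agt, which encodes angiotensinogen, was higher by 2.54 in WT mice, and the glypican Gpc6 by 2.27 in En2-/- mice, where it was well above background on 1 of 3 hippocampal arrays. Of the radial glial genes and transcription factors, 2 of 17 tested genes were higher and 7 lower in WT cerebellum, and 3 of 18 higher and 5 lower in En2-/- cerebellum. Their probes gave 3 of 28 higher and 11 lower in WT, and 4 of 31 higher and 6 lower in En2-/- cerebellum. Pax6, which granule cells also express, was higher by 2.77 in WT and 2.61 in En2-/- mice by probe A_51_P489935, and by 2.73 and 2.97 by probe A_52_P565559. The forebrain regulators Lhx2 and Emx2 were lower, with differences of -4.93 and -6.72 in WT and of -3.80 and -5.16 in En2-/- mice, and Nfib differed by -1.28 in WT mice. Emx2 was well above background on 2 of 3 cerebellar arrays of each genotype. Gli1, a target of sonic hedgehog and among the 3 counted as higher in En2-/- mice, entered the test only through its En2-/- cerebellar arrays and was not well above background on any hippocampal array, so that its difference is a bound of at least 1.08-fold. Of the 34 reactive astrocyte genes, 28 were tested in WT and 29 in En2-/- mice. In WT cerebellum 6 were higher and 7 lower, and in En2-/- cerebellum 3 were higher and 6 lower. Counted by probe, 7 of 37 were higher and 11 lower in WT, and 4 of 38 higher and 9 lower in En2-/- cerebellum. Ptgs2, an enzyme also made by excitatory neurons, was not well above background in the cerebellum of either genotype and was at least 63.1-fold higher in WT and at least 51.7-fold higher in En2-/- hippocampus. B3gnt5 was not well above background in hippocampus and was at least 11.1-fold higher in WT and at least 7.59-fold higher in En2-/- cerebellum. Sphk1 was higher by 2.78 in WT and 1.78 in En2-/- cerebellum by probe A_51_P501248, and by 2.64 and 2.19 by probe A_52_P400436. Cd109 differed by -2.90 in WT and Ptx3 by -1.97 in En2-/- mice, and they were well above background on 1 and 2 of the 3 cerebellar arrays.

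Neuronal genes of the glutamate-glutamine cycle went both ways, with 3 of 7 genes higher and 3 lower in WT cerebellum, and 4 higher and 3 lower in En2-/- cerebellum (limma). By probe, 6 of 18 were higher and 4 lower in WT, and 12 higher and 4 lower in En2-/- cerebellum. Slc1a6, the glutamate transporter of Purkinje cells, was higher by 4.24 in WT and 3.27 in En2-/- mice, and the vesicular transporter Slc17a6 by 2.65 and 2.73. The vesicular transporter Slc17a7 was lower, with differences of -3.23 in WT and -2.08 in En2-/- mice. The glutamine transporter Slc38a1 was higher by 1.56 in En2-/- mice.

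In the cerebellum of En2-/- mice compared with WT, no probe of the 10 genes passed limma, where 0.558% of all 27416 probes did. At an unadjusted p below 0.05, 2 of the 21 probes passed, as did 2254 of all probes. The rank product, the ranking test that the methods name, called 2 probes lower in En2-/- cerebellum at P below 0.01, against 4.55% of all probes in either direction: Gdf10 and the Slc1a2 variant 3 probe. Neither remained when calls were limited to a percentage of false prediction below 0.05. The arrays of the 2 genotypes did not overlap for 4 of the 21 probes, where 13.8% of all probes did not. Those were Gdf10, the Slc1a2 variant 3 probe and Slc1a3 probe A_51_P268697, all lower in En2-/-, and Aqp4 probe A_51_P419319, higher in En2-/-.

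The Gdf10 values given above showed En2-/- cerebellum (11.07 ± 0.34) below WT cerebellum (12.14 ± 0.41), with no overlap. The difference was -1.06 (SE 0.29), with a rank product permutation P of 0.0038 and a limma adjusted p of 0.290. Within slides 1, 2 and 3 it was -1.53, -1.23 and -0.43. Without En2-/- replicate 1 the rank product permutation P became 0.0188, and without WT replicate 2 it became 0.0251. In the hippocampus, where Gdf10 was much lower, the difference of -0.34 (SE 0.20) did not pass (limma adjusted p = 0.356; 8.52 ± 0.28 in En2-/- and 8.86 ± 0.14 in WT). The groups only just did not overlap, with the highest En2-/- array at 8.77 and the lowest WT array at 8.78. Of all hippocampal probes 27.9% did not overlap. Within slides 1, 2 and 3 the hippocampal difference was -0.20, -0.81 and -0.02. Slc1a3 differed by -0.26 in both tissues (SE 0.19 in cerebellum and 0.16 in hippocampus, limma adjusted p = 0.810 and 0.386), and Aqp4 probe A_51_P419319 by 0.42 in cerebellum (SE 0.19, limma adjusted p = 0.642). Of the Purkinje cell markers, whose cells Bergmann glia ensheath, 1 of 7 passed limma in cerebellum, by 1 of its 2 probes: Car8 probe A_51_P392005 fell by 2.48 (SE 0.34, limma adjusted p = 0.0254). The brighter Car8 probe, A_52_P625118, differed by -0.35 (SE 0.43, limma adjusted p = 0.919). The mean level of the 7 markers was 14.13 to 14.36 in En2-/- and 14.45 to 15.00 in WT cerebellum. The mean of 8 endothelial and mural markers was 9.36 to 9.48 against 9.74 to 9.94, with 0 of 8 passing limma and 3 of 14 probes at an unadjusted p below 0.05. That of 8 microglial markers was 8.28 to 8.94 against 8.94 to 9.04, with 0 of 8 passing limma and 3 of 15 probes at an unadjusted p below 0.05. Among the lists with the opposite sign, the mean of 6 choroid plexus markers was 11.63 to 11.78 in En2-/- against 11.17 to 11.37 in WT cerebellum, with 0 of 6 passing limma and 3 of 9 probes at an unadjusted p below 0.05. The mean of the 12 Bergmann glial genes, a list without Gdf10, was 11.63 to 11.73 against 11.84 to 11.98, with 0 of 12 passing limma and 1 of 22 probes at an unadjusted p below 0.05. That of 27 astrocyte metabolic and secreted factors went the other way, at 13.51 to 13.61 in En2-/- against 13.38 to 13.46 in WT cerebellum. Of that list 0 of 29 genes passed limma, and 4 of 43 probes had an unadjusted p below 0.05. The means of the transport, radial glial and reactive lists overlapped between the genotypes. The part of these differences in the values of the 10 genes was not tested.

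**Figure D3:**
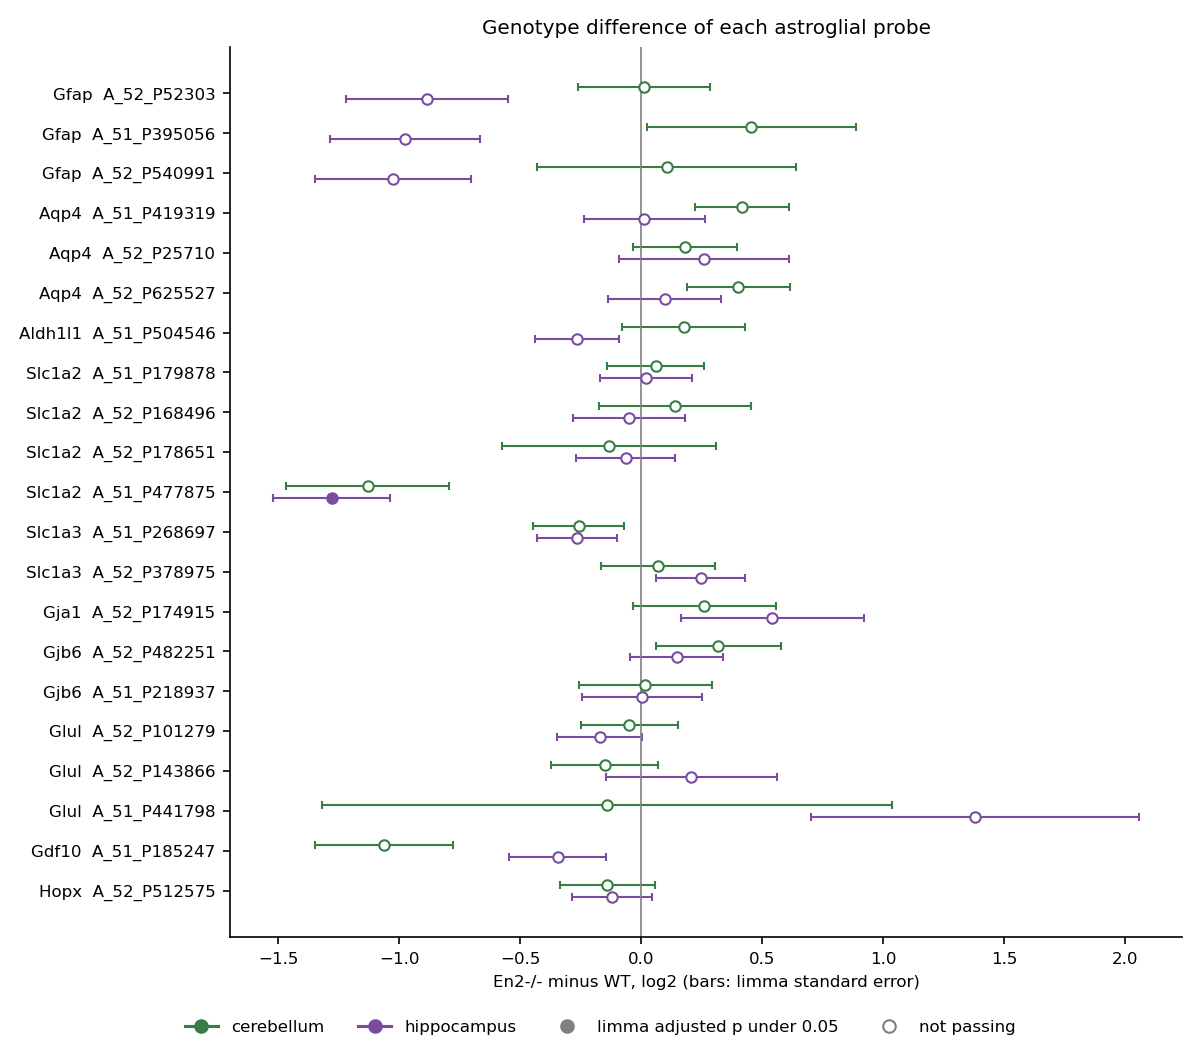
En2-/- minus WT (horizontal axis, log2) for the 21 tested probes of the 10 genes in cerebellum and hippocampus, with limma standard errors as bars. The only filled point, with a limma adjusted p under 0.05, is the Slc1a2 variant 3 probe A_51_P477875 in hippocampus at -1.28, and the same probe lies at -1.13 in cerebellum.

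In the hippocampus 1 of the 21 probes passed limma, where 2.12% of all 25666 probes did, and it was lower in En2-/-: the Slc1a2 variant 3 probe. At an unadjusted p below 0.05, 4 of the 21 probes passed, as did 5451 of all probes. The rank product called 2 of the 21 at P below 0.005, against 4.26% of all probes: the Slc1a2 variant 3 probe, lower in En2-/-, and Glul probe A_51_P441798, higher in En2-/-. The arrays of the 2 genotypes did not overlap for 5 of the 21 probes, all lower in En2-/-, where 27.9% of all probes did not overlap. Those 5 were 2 of the Gfap probes, the Slc1a2 variant 3 probe, Slc1a3 probe A_51_P268697 and Gdf10.

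The Slc1a2 variant 3 probe read 8.68, 8.28 and 8.87 in WT and 7.57, 7.47 and 6.95 in En2-/- hippocampus. In the cerebellum it read 8.05, 8.21 and 7.29 in WT and 7.01, 6.17 and 6.98 in En2-/- mice. The genotypes did not overlap in either tissue. In hippocampus it was lower in En2-/- mice (difference -1.28, SE 0.24, 2.43-fold, limma adjusted p = 0.0420, rank product permutation P = 0.0013). In cerebellum the difference was -1.13 (SE 0.34, limma adjusted p = 0.355, rank product permutation P = 0.0033). The hippocampal limma call was lost with a replicate block (limma adjusted p = 0.117), with no filter on dim probes (0.101), with all 12 arrays in the fit (0.0752) and with any 1 of the 6 arrays left out (0.0566 to 0.156), while the rank product call was lost without En2-/- replicate 3 (permutation P = 0.0074) or WT replicate 3 (0.0076). In cerebellum the rank product call was lost without En2-/- replicate 2 (permutation P = 0.0155), WT replicate 1 (0.0113) or WT replicate 2 (0.0227).

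The other Slc1a2 probes showed no such difference. The shared probe, 35 bases upstream, differed by -0.05 (SE 0.23) in hippocampus and by 0.14 (SE 0.31) in cerebellum, and the remaining Slc1a2 probes by -0.06 and 0.02 in hippocampus and by -0.13 and 0.06 in cerebellum, with limma adjusted p from 0.884 to 0.982 over these 3 probes and 2 tissues. The level of the variant 3 probe minus that of the shared probe on the same array, a measure chosen after these values were seen, was compared next. In cerebellum it was -4.47, -4.47 and -4.45 in En2-/- and -3.18, -3.11 and -3.30 in WT mice. In hippocampus it was -4.36, -4.60 and -4.87 in En2-/- and -3.54, -3.25 and -3.35 in WT mice. The 6 En2-/- arrays thus all lay below the 6 WT arrays, in a range that the tissues shared. The genotype difference of this measure was -1.27 in cerebellum and -1.23 in hippocampus, and in each tissue an exact permutation test gave p = 0.1 (two-sided), the smallest that 3 arrays against 3 allow. Under the alternative settings it ran from -1.32 to -0.83 in cerebellum and from -1.41 to -1.03 in hippocampus.

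**Figure D4:**
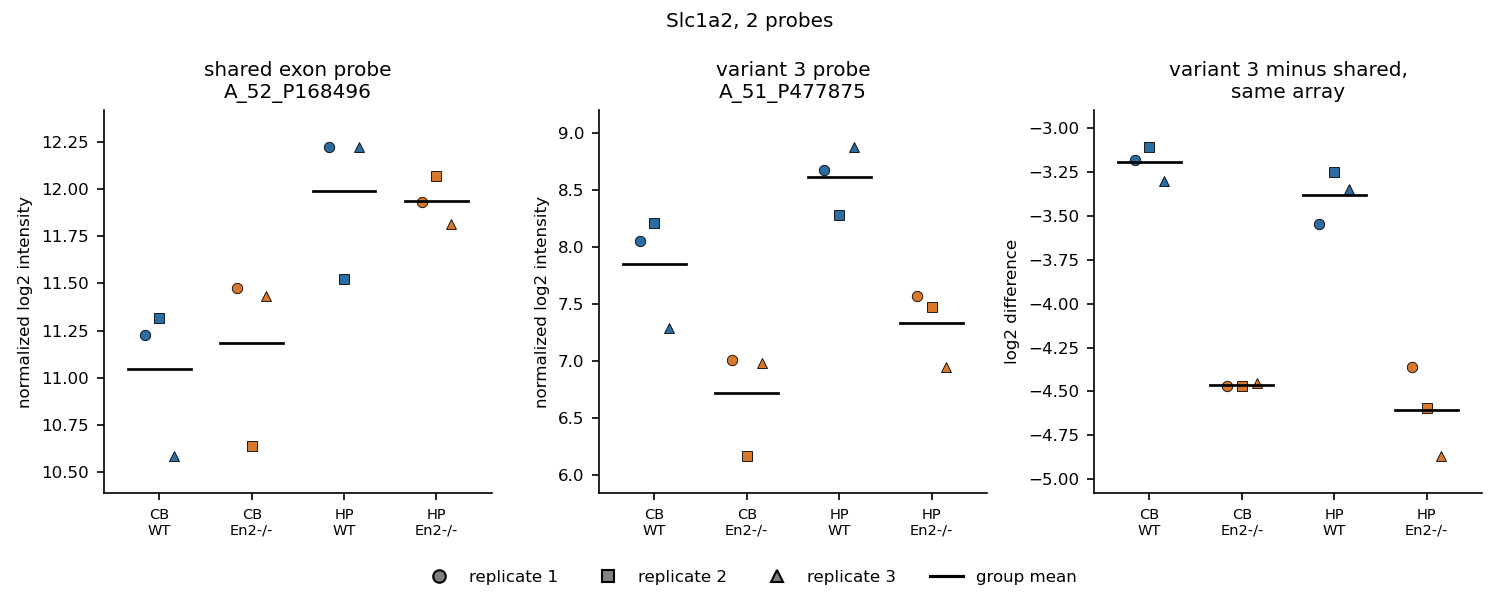
Normalized log2 intensity of the Slc1a2 shared probe (left) and variant 3 probe (middle) on the 12 arrays, and their difference on the same array (right, log2), by tissue and genotype. Each symbol is 1 array and bars are group means. On the right the 6 En2-/- arrays lie between -4.87 and -4.36 and the 6 WT arrays between -3.54 and -3.11, while on the left the genotypes overlap.

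Gfap had lower means in En2-/- than in WT hippocampus by all 3 probes, and none passed limma. Probe A_52_P540991 read 9.15, 8.40 and 8.51 in WT and 8.30, 7.40 and 7.27 in En2-/- mice, and A_51_P395056 read 10.84, 10.15 and 9.82 against 9.75, 9.15 and 8.99. For both probes every En2-/- array lay below every WT array. The brightest probe, A_52_P52303, read 13.73, 12.89 and 13.35 in WT and 13.11, 12.21 and 11.99 in En2-/- mice, so that 1 En2-/- array lay within the WT range. The differences were -1.03 (SE 0.32), -0.98 (SE 0.31) and -0.88 (SE 0.34), with limma adjusted p of 0.138, 0.140 and 0.192. The rank product permutation P was 0.0058, 0.0076 and 0.0124, each above the limit of 0.005. Within the 3 slides probe A_52_P540991 differed by -1.23 to -0.85. With the normexp background, and on the authors' processed values, all 3 probes passed the rank product limit, with permutation P between 0.0019 and 0.0043. Other settings moved the difference or its P in either direction. With probes above background on all arrays compared, the permutation P was 0.0027, 0.0037 and 0.0071, in the order of the differences above. Without En2-/- replicate 1 it was 0.0018, 0.0035 and 0.0037. With no filter on dim probes the permutation P was, in the same order, 0.0113, 0.0141 and 0.0209. Without WT replicate 1 it was 0.0342, 0.0524 and 0.0521. With 75th percentile scaling A_52_P540991 passed (0.0046), while A_51_P395056 and the brightest probe did not (0.0075 and 0.0321). A replicate block gave limma adjusted p of 0.106, 0.113 and 0.167, lower than without the block. In the cerebellum the 3 probes differed by 0.11, 0.46 and 0.01, with limma adjusted p from 0.883 to 0.997.

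**Figure D5:**
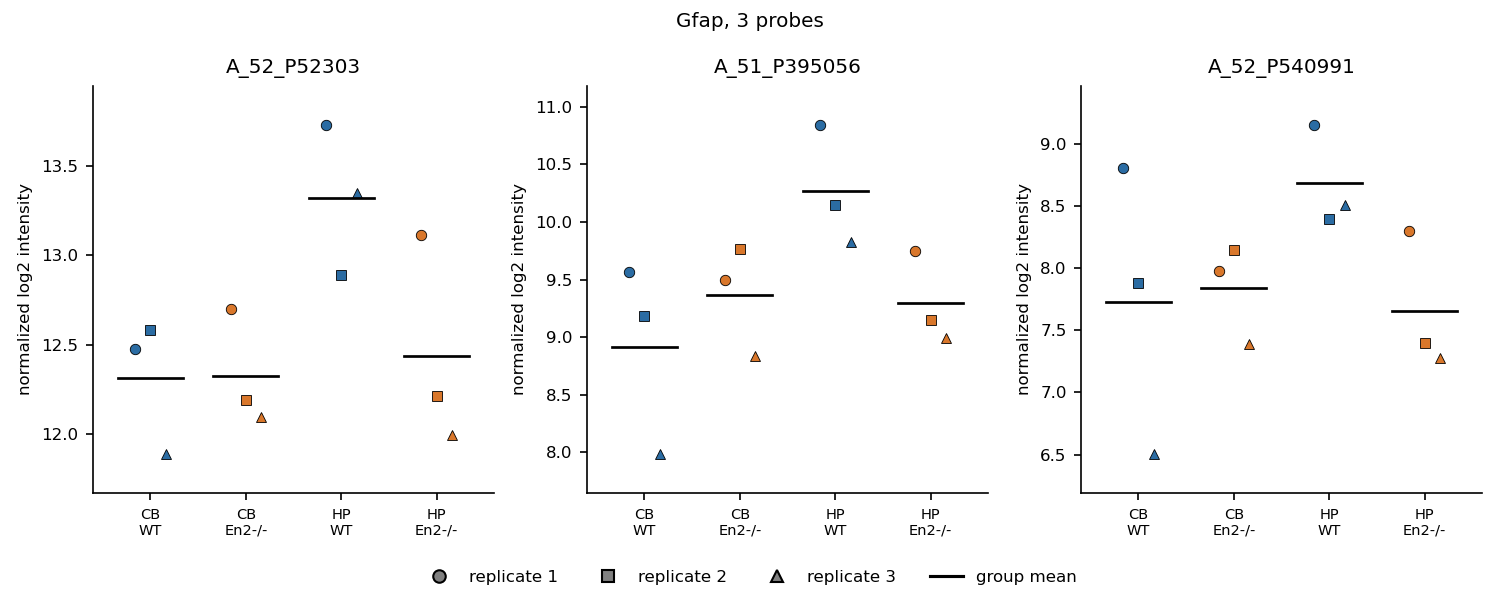
Normalized log2 intensity (vertical axis) of the 3 Gfap probes on the 12 arrays, by tissue (CB, cerebellum; HP, hippocampus) and genotype. Each symbol is 1 array and bars are group means. In hippocampus the En2-/- means lie 0.88 to 1.03 below the WT means, and in cerebellum the genotypes overlap for every probe.

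The Glul call rested on single arrays of 1 probe. Probe A_51_P441798 (chr1:155755785-155755844, mm9, plus strand) read 9.82, 6.93 and 9.33 in WT and 10.29, 10.35 and 9.58 in En2-/- hippocampus, and 8.34, 9.83 and 9.66 in WT and 10.55, 6.02 and 10.83 in En2-/- cerebellum. WT hippocampal replicate 2 and En2-/- cerebellar replicate 2 lay far below the rest. The hippocampal difference was 1.38 (SE 0.68, rank product permutation P = 0.0017, limma adjusted p = 0.287), and without WT replicate 2 it was 0.50 (permutation P = 0.0869). It also lost its rank product call without En2-/- replicate 1 or 2 (permutation P = 0.0119 and 0.0101). The brightest Glul probe, A_52_P101279, differed by -0.17 (SE 0.17) in hippocampus and -0.05 (SE 0.20) in cerebellum. Gja1 read 12.29, 13.40 and 11.77 in WT and 12.91, 13.08 and 13.10 in En2-/- hippocampus, a difference of 0.54 (SE 0.38, limma adjusted p = 0.439). For Aldh1l1, Gjb6, Hopx and the Aqp4 probes the hippocampal differences lay between -0.26 and 0.26, with limma adjusted p from 0.415 to 0.997.

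For the other astroglial genes the counts between genotypes are given beside those of all probes. By limma 0.558% of all 27416 probes passed in cerebellum and 2.12% of all 25666 in hippocampus. At an unadjusted p below 0.05, 2254 and 5451 of all probes passed. In the cerebellum 0 genes of the 5 astroglial lists passed limma, and at an unadjusted p below 0.05 there were 3 of 31 probes of the transport list, 4 of 43 of the metabolic list, 1 of 22 of the Bergmann glial list, 5 of 28 of the radial glial list and 5 of 36 of the reactive list. In En2-/- hippocampus Chrdl1, a secreted antagonist of bone morphogenetic proteins, fell by 0.97 by probe A_52_P600975 (limma adjusted p = 0.0420) as 1 of 29 metabolic and secreted factors, and the transcription factor gene Etv5 fell by 1.06 by probe A_51_P323579 (limma adjusted p = 0.0295) as 1 of 12 Bergmann glial genes. Another Chrdl1 probe differed by 0.51 and another Etv5 probe by -0.68, and neither passed (limma adjusted p = 0.313 and 0.381). Fkbp5, a glucocorticoid-induced chaperone on the reactive astrocyte list, rose by 1.56 by probe A_52_P481493 (limma adjusted p = 0.00755), as 1 of 26 tested genes of that list, while its other 2 probes differed by -0.20 and 0.04 (limma adjusted p = 0.528 and 0.926). Of the 19 transport genes and of the 17 tested radial glial genes and transcription factors 0 passed limma, with 7 of 32 and 3 of 29 probes at an unadjusted p below 0.05. Of the neuronal partners of the glutamate-glutamine cycle, Slc17a7 fell by 1.32 in hippocampus (limma adjusted p = 0.0372), 1 of 7 genes.

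Of the marker lists of other cells, the microglial list alone had genes that passed limma between genotypes in the hippocampus. These were 2 of its 8 genes, with a difference of -1.92 for Fcrls (limma adjusted p = 0.00557) and of -1.48 for Itgam (limma adjusted p = 0.00872) by the most different probe of each. The list was not uniform: of its 14 tested probes 10 had negative and 4 positive differences, and the positive ones, of Aif1 and Trem2, reached 0.59 for Aif1 probe A_51_P400543 (SE 0.19, limma adjusted p = 0.138). The mean level of the 8 genes was 9.81 to 9.87 in En2-/- and 10.42 to 10.54 in WT hippocampus. That of the 8 endothelial and mural markers was 9.22 to 9.38 against 9.68 to 9.96, with 0 of 8 passing limma and 5 of 14 probes at an unadjusted p below 0.05. All 8 genes of each list were well above background on all 12 arrays. Over all 25666 probes, 5451 had an unadjusted p below 0.05. Neuronal lists also held such probes: 4 of 11 of the hippocampal neuron list, whose median difference was -0.50. There were 5 of 11 of the Purkinje list (median 0.31) and 3 of 6 of the granule cell list (median 0.83). The mean levels of these neuronal lists overlapped between the genotypes. The hippocampal neuron list only just did, with the highest En2-/- array at 13.996 and the lowest WT array at 13.994. The mean of 6 choroid plexus markers, with 0 of 9 probes at an unadjusted p below 0.05, varied from 9.12 to 13.64 among the En2-/- hippocampal arrays and from 11.54 to 12.95 among those of WT. Of the 34 reactive astrocyte genes, Lcn2, Steap4, Ugt1a1 and Tgm1 were well above background on no array. Among astroglial lists, the mean of 14 genes of the radial glial list was 10.42 to 10.51 in En2-/- and 10.53 to 10.57 in WT hippocampus. That of 27 metabolic and secreted factors went the other way, at 13.532 to 13.618 against 13.440 to 13.526. The means of the transport, Bergmann glial and reactive lists overlapped between the genotypes there. The part of these differences in the hippocampal values of Gfap and Slc1a2 was not tested.

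The genotype difference was then compared between the tissues by the interaction term of the limma fit over the 12 arrays. No probe of the 10 genes passed, where 0.104% of all 27919 probes did, and 1 of the 21 had an unadjusted p below 0.05, as did 3222 of all probes. That one was Gfap probe A_51_P395056, whose difference between the tissues was 1.43 (SE 0.59, limma adjusted p = 0.390). The other Gfap probes gave 0.90 and 1.13 (SE 0.46 and 0.70). For Gdf10 the term was -0.72 (SE 0.36, limma adjusted p = 0.457). For the Slc1a2 variant 3 probe it was 0.15 (SE 0.44, limma adjusted p = 0.907).

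Probes of one gene did not always move together within groups. As deviations from the group means over 12 arrays, the 3 Gfap probes correlated at 0.71 to 0.95 (Pearson's r) and the 3 Aqp4 probes at 0.70 to 0.90. The Slc1a2 shared and variant 3 probes correlated at 0.93, but both ran against the brightest Slc1a2 probe, at -0.47 and -0.30. Glul probes correlated at -0.48 to 0.58, the 2 tested Slc1a3 probes at 0.24 and the 2 Gjb6 probes at 0.08. Deviations on the same array share its RNA and its normalization, and these values are descriptive.

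Among 13639 genes compared over the 12 arrays by Pearson's r, each of the 10 genes had a nearest non-member. For Gdf10 this was Kcng4 (r = 0.987), for Aqp4 Vat1 (r = 0.976), for Hopx Olfm3 (r = 0.966), for Aldh1l1 Crispld2 (r = 0.964) and for Slc1a2 Zswim6 (r = 0.959). For Slc1a3 it was Uncx (r = 0.955), for Glul Hsdl2 (r = 0.952), for Gjb6 Tulp4 (r = 0.940), for Gja1 Nipbl (r = 0.936) and for Gfap Alas1 (r = 0.877). The 12 arrays share the contrast between tissues and are few for a search of this size.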

How the data were processed

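Feature Extraction 10.7.3.1, per the file headers, gave the deposited intensity of each spot on 12 one-colour Agilent arrays (design on mm9), as a background-subtracted processed signal. The authors also deposited log2 values of 27534 probes, normalized within each tissue, and these served only as an alternative for genotype. Here outlier-flagged spots (110 to 331 per array) were removed, no spot was saturated, log2 signals were quantile normalized over 12 arrays, and spots of a probe were averaged. A probe was tested where it was well above background on every array of at least 1 group compared. Differences were tested with limma 3.58.1 (R 4.3.3), on 12 arrays for tissue and interaction and 6 for genotype, with Benjamini-Hochberg adjustment over all probes tested (adjusted p below 0.05). The rank product of the study's methods (9 ratios, 100 permutations, P below 0.01 in cerebellum and 0.005 in hippocampus) was written out, since its package was absent. Its permutations shuffle the probes within each array and leave the genotype labels in place. Its P therefore ranks a probe against all probes, does not measure the spread among mice, and can be small for a probe that varies widely. The authors' methods give an RNA integrity number above 9. With 3 arrays per group the number of arrays limits the precision.

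Both tests were tried on simulated data. Replicate numbers are slide numbers. Deviations from the group means correlated above 0.1 in 5 of 18 pairs of arrays on the same slide, against 12 of 36 pairs on different slides. The median correlation was 0.05 on the same slide and -0.04 on different slides. The main fits carry no block, and a block changed the spread of single probes both ways. In hippocampus it took the SE of Gfap probe A_51_P395056 from 0.31 to 0.20, and that of the Slc1a2 variant 3 probe from 0.24 to 0.27. Alternatives were the normexp background (offset 50), 75th percentile scaling, quantiles within tissue, filters, 1 probe per gene, a replicate block, all 12 arrays in the genotype fit, the authors' values, a percentage of false prediction, and leaving out each array. The members and the gene lists were chosen with earlier results of these data known. Genes outside the 10 were named as the 4 per list and comparison that passed with the largest difference, each by its most different probe, with other probes added for some after their values were seen, and 1 of these genes and 1 probe sequence are not reported here. For a group not well above background the fold is a bound, set on each array at the lowest signal well above background or the probe's own signal, whichever was higher. Python 3.11.15, numpy 2.4.6, pandas 2.3.3, scipy 1.17.1 and matplotlib 3.10.9 made tables and figures.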

Additional observations from a re-analysis of the deposited data

How the results depend on the processing

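Between tissues, 9 of the 21 probes were called in WT, 5 of 10 with 1 probe per gene and 5 to 8 when 1 array was left out, and 8 in En2-/- mice, 5 to 6 when 1 array was left out; over all probes, 7672 became 5083 and 6620 became 4221 with 1 probe per gene. For genotype in hippocampus the 1 limma call became 0 with no filter on dim probes, with 1 probe per gene, with the replicate block, with all 12 arrays in the fit and without any 1 array. Over all probes its 544 calls became 185, 206, 146 and 319 under the first 4 of these settings, and 98 to 384 when 1 array was left out. In cerebellum 153 calls became 66 with no filter, 90 with probes above background on all arrays, 267 with all 12 arrays and 65 to 128 when 1 array was left out. The 29 interaction calls became 10 with probes above background on all arrays, 17 with the replicate block and 12 to 60 when 1 array was left out. By rank product, the 2 cerebellar probes became 1 with 1 probe per gene, 0 under the percentage of false prediction and 0 to 3 when 1 array was left out, and all 1248 calls became 787 and 280 under the first 2. The 2 hippocampal probes became 5 with normexp, 5 on the authors' values, 4 with probes above background on all arrays, 0 with 1 probe per gene, 0 under the percentage of false prediction and 1 to 4 when 1 array was left out, and all 1093 calls became 624 with 1 probe per gene and 305 under the percentage of false prediction. The cause of these moves was not tested, beyond the fewer probes or arrays in a setting. Glul probe A_51_P441798 changed sign in cerebellum, from -0.14 to 0.078 with normexp, 0.073 on the authors' values, and between -0.99 and 1.42 when 1 array was left out. With the replicate block 8 probes were called between tissues in WT and 8 in En2-/- mice. Probes well above background on only part of the arrays have no firm order at low signal.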
